A study of Homo sapiens with 6 samples.

Results

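Integrins, laminins and the glycoproteins of the extracellular matrix were followed here in ARPE-19 cells, an established human line of retinal pigment epithelium (RPE). RNA-seq was available for 3 libraries of cells carrying a control short hairpin RNA (sh-Control, a scrambled sequence) and 3 libraries of cells carrying a hairpin against METTL3 (sh-METTL3). METTL3 is the enzyme that writes N6-methyladenosine (m6A) on RNA. Both groups had been infected with lentivirus and drug-selected, and both were treated with lipopolysaccharide (LPS, a component of bacterial cell walls) at 1 µg/ml for 24 h, so no comparison with untreated cells could be made. No source used here says if separate infections or cultures lay behind the replicates, so the p-values measure only the spread between libraries, which may be technical.

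Genes were chosen by symbol: the integrin, laminin, nidogen, fibulin, fibrillin, microfibril, thrombospondin, matrilin, CCN and related families. The rule matched 68 of the 7758 genes of the deposited table. Of these, 54 were integrin or matrix genes and 14 were caught by a prefix only, namely 13 genes with cyclin symbols (cyclins of the cell cycle or of transcription, and cyclin-binding proteins such as CCNDBP1 and CCNB1IP1) and MFAP1, a nuclear protein. A further 35 matrix genes matched the rule in the annotation but were not in the table and were not analysed here, among them ITGA5, ITGB3, ITGB6, POSTN and CTGF. The table holds only genes that had passed the authors' own test for a difference between the groups, so the number of genes that differ is fixed in advance by that selection and is given below as a description.

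Integrins are cell surface receptors made of 1 alpha and 1 beta chain. The pairing sets what a cell can hold on to: ITGB1 pairs with many alpha chains to bind collagen, laminin and fibronectin, ITGB4 pairs with ITGA6 at hemidesmosomes, and ITGAV pairs with ITGB5 or ITGB8. Laminins are trimers of an alpha, a beta and a gamma chain that form the basement membrane together with nidogens and type IV collagen. In the eye the RPE rests on such a basement membrane, as the inner layer of Bruch's membrane, and its elastic layer contains elastin and fibulins.

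Several matrix ligands are recognised by integrins through the tripeptide Arg-Gly-Asp (RGD). In the longest coding sequence annotated for each gene, RGD codons were found in 18 of the 54 matrix genes (33.3%), against 654 of 6721 coding genes of the table (9.73%). The matrix genes were also longer, with a median of 1060 codons against 498, and the part of length in this share was not tested. RGD codons occurred in 11 of 24 matrix genes that were higher in sh-METTL3 cells and in 7 of 30 that were lower. Over the coding genes of the table they occurred in 10.2% of higher and 9.38% of lower genes. The coding stretches of 6 secreted ligands are shown because their levels moved in opposite directions. Each is written 5′ to 3′ on the coding strand, 30 bases long, with the RGD codons in capitals (GENCODE 29, GRCh38).
FN1 (chr2:215384054-215384083, minus strand, exon 30 of 46): gctgtcactggcCGTGGAGACagccccgca
THBS1 (chr15:39592799-39593025, plus strand, exons 17 and 18 of 22): gacggcgatggtCGAGGTGATgcctgcaaa
TNC (chr9:115077971-115078000, minus strand, exon 7 of 28): ctcatctcccgcAGAGGTGACatgtcaagc
NID1 (chr1:236024077-236024106, minus strand, exon 9 of 20): tccatcggcttcCGAGGAGACgggcgaacc
TGFBI (chr5:136061505-136061534, plus strand, exon 15 of 17): agacctcaggaaAGAGGGGATgaacttgca
VTN (chr17:28369829-28369933, minus strand, exons 2 and 3 of 8): ccccaagtgactCGCGGGGATgtgttcact
The first 4 genes were lower in sh-METTL3 cells and TGFBI and VTN were higher. The coordinates of THBS1 and VTN enclose an intron that is left out of the sequence. An RGD triplet in a coding sequence is a description of the letters and does not show that an integrin binds there.

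METTL3 itself was measured first. Its scaled counts (read counts divided by a size factor per library) were 1154, 1108 and 1091 in sh-Control and 966, 1001 and 765 in sh-METTL3. The mean fell from 1118 ± 32.8 to 911 ± 128 (SD, n = 3), a difference of -18.5%, and the groups did not overlap. Differences below are log2 fold changes on the log2(scaled count + 1) scale, and values written as -fold or times are ratios of mean scaled counts. The METTL3 difference was -0.30 (SE 0.0965, adjusted p = 0.0108, limma with Benjamini-Hochberg adjustment over the 7758 genes). It was -0.18 without sh-METTL3 replicate 3, the library with the lowest METTL3 level, and -0.17 with edgeR's RLE factors, where it no longer passed (adjusted p = 0.0881, edgeR quasi-likelihood test).

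Reads on the listed genes numbered between 10898434 and 17750052 per library. The first principal component separated the groups and held 89.8% of the variance. It was taken over the listed genes, all kept for a difference between the groups, so this separation was fixed in advance. The second component, with 3.36%, placed sh-METTL3 replicate 3 away from replicates 1 and 2. Of 14 RPE markers 7 were in the table: KRT8, KRT18, LRAT and MITF were higher in sh-METTL3 cells, and SERPINF1, PMEL and BEST1 were lower. RPE65, RLBP1 and TTR were not in the table. Of 14 mesenchymal markers 7 were listed, with THY1, COL1A2, COL1A1, CNN1 and PDGFRB lower and VIM and TAGLN higher, and their summed scaled count was 57892 to 61523 in sh-Control and 92624 to 105643 in sh-METTL3 libraries. VIM made that rise: without it, a sum added after the data were seen, the range was 12999 to 15125 in sh-Control and 6712 to 8780 in sh-METTL3 libraries. No endothelial marker of 6 was listed. The photoreceptor list was represented by GNAT1 alone, 1 of 6 genes, with summed scaled counts of 4.79 to 13.1 in sh-Control and 0 to 0.933 in sh-METTL3 libraries. The part of these marker changes in the results below was not tested. In bulk RNA, a smaller share of cells of one kind and less RNA per cell cannot be told apart.

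All 54 matrix genes passed the limma test at an adjusted p under 0.05, in a table where 99.9% of genes did. Higher levels in sh-METTL3 cells were found for 24 of the 54, beside 47.6% of all genes, and lower levels for 30, beside 52.2%. The level at least doubled or halved for 23 of the 54 (9 doubled and 14 halved, 42.6%), beside 30.7% of the table. With a mean of at least 50 required, a count added after the data were seen, it was 13 of 44 (29.5%), beside 18.7% of the 6532 genes left, and all 10 matrix genes that this filter removed were among the doubled or halved. For 52 of the 54 the ranges of sh-Control and sh-METTL3 were separate, beside 98.5% of all genes, and the exceptions were ITGAV and VTN. The median log2 fold change was -0.37 over the matrix genes and -0.21 over the table, but with the same filter it was -0.02 over the matrix genes and -0.25 over the table, so the order of the medians rests on genes with few reads. The matrix genes moved in both directions, and they are described below by role.

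**Figure D1:**
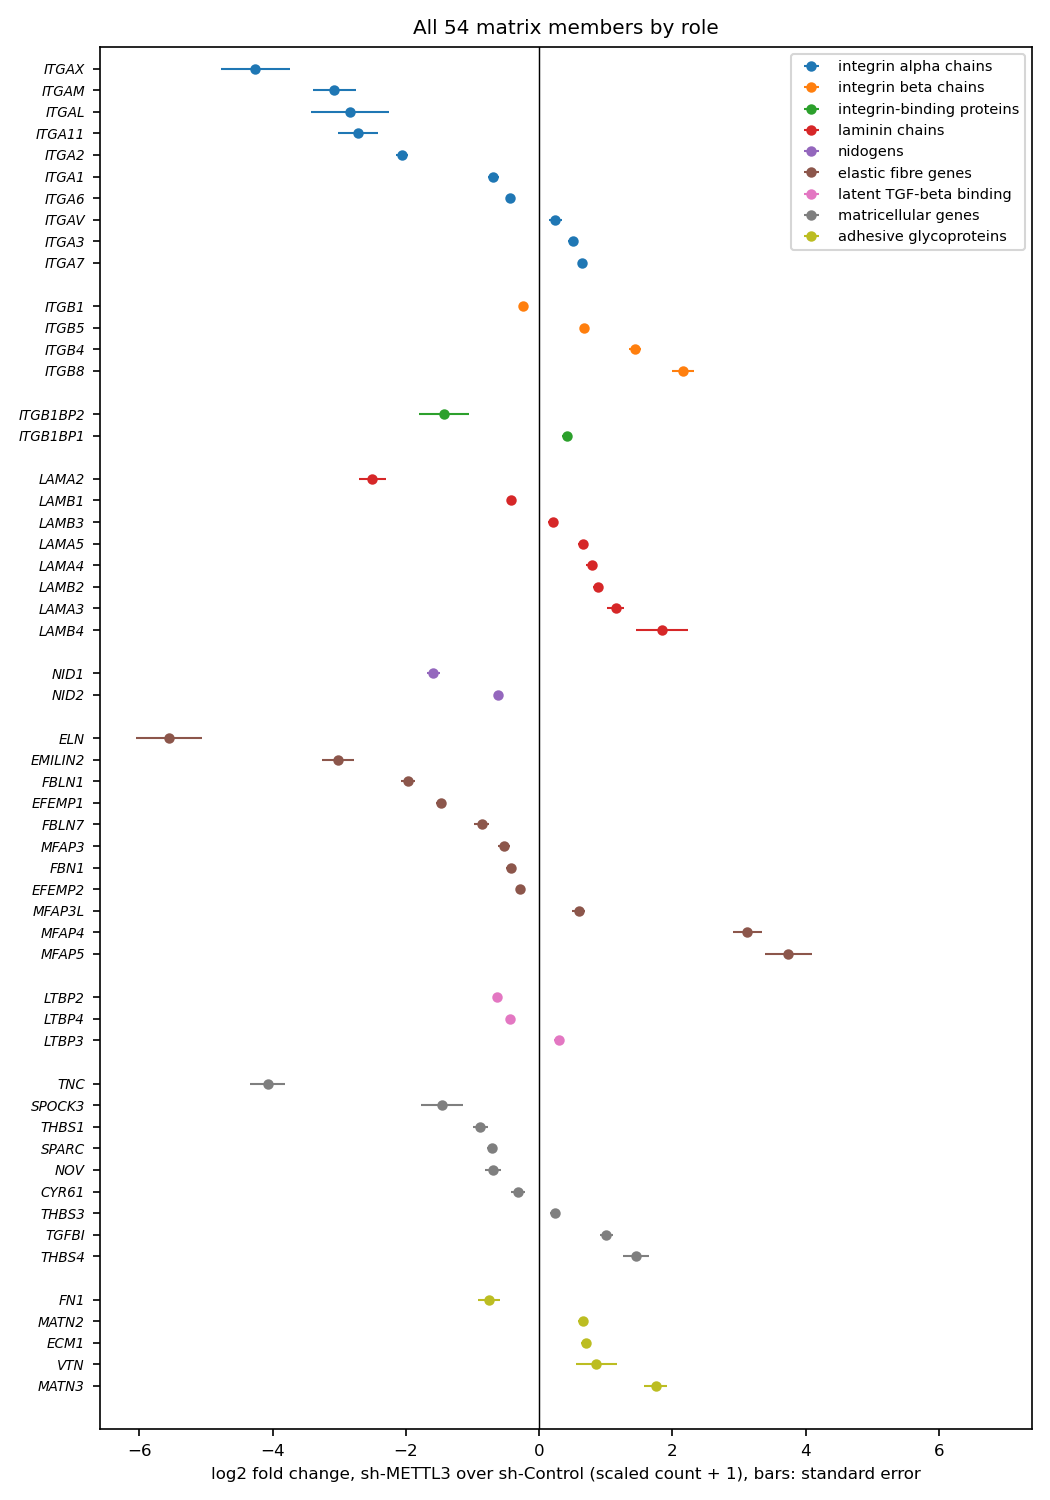
Log2 fold change of each of the 54 matrix genes, sh-METTL3 over sh-Control, on the log2(scaled count + 1) scale, grouped by role, with bars for the standard error of the limma fit. Values run from -5.56 (ELN) to 3.74 (MFAP5), with 6 of 8 laminin chains to the right of 0 and 8 of 11 elastic fibre genes to the left.

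Among the 4 beta chains in the table, ITGB1, the most abundant, was lower by the limma test and the other 3 rose. Over all genes 52.2% were lower and 47.6% higher. Scaled counts of ITGB1, the common partner of collagen, laminin and fibronectin receptors, were 53230, 53315 and 56145 in sh-Control and 46661, 47968 and 43696 in sh-METTL3 cells. The groups did not overlap and the difference was small, at -0.23 (SE 0.0727, adjusted p = 0.00976, limma). With edgeR's RLE factors, which shift the median of all genes by 0.12, it was -0.11 and no longer passed (adjusted p = 0.116, edgeR quasi-likelihood test). ITGB5, a partner of ITGAV in vitronectin binding, measured 11631, 12250 and 11911 against 19275, 19816 and 18129, a rise of 0.68 (SE 0.0573, adjusted p = 3.68e-06, limma). ITGB4, the hemidesmosome chain, measured 1175, 1352 and 1041 against 3317, 3268 and 3039, which was 2.70-fold higher. ITGB8, which with ITGAV binds latent TGF-β, measured 196, 214 and 240 against 794, 885 and 1306, which was 4.59-fold higher. Every sh-METTL3 library was above every sh-Control library for ITGB5, ITGB4 and ITGB8, in a table where 98.5% of genes did not overlap.

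Because the size factors cannot change a share, the beta chains were also compared as shares of their own summed level per kb of exon. The sum itself was 11063 ± 265 in sh-Control and 11169 ± 501 in sh-METTL3 cells (SD, n = 3), a difference of 0.964% that lay within the spread. ITGB1 held 81.5% of it in sh-Control and 68.7% in sh-METTL3 cells. The share of ITGB5 went from 16.7% to 26.5%, that of ITGB4 from 1.59% to 4.25% and that of ITGB8 from 0.129% to 0.593%. The ratio of ITGB5 to ITGB1 per kb was 0.204, 0.214 and 0.198 in the sh-Control libraries and 0.385, 0.385 and 0.387 in the sh-METTL3 libraries. These are shares of the 4 listed chains only, since ITGB3 and ITGB6 were not in the table.

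All 3 collagen-binding alpha chains in the table were lower, as were 52.2% of all genes. ITGA2 measured 1274, 1232 and 1204 in sh-Control and 281, 272 and 340 in sh-METTL3 cells, a change of -2.06 (SE 0.0939, adjusted p = 6.98e-08, limma). ITGA1 measured 3265, 3481 and 3765 against 2254, 2356 and 1925, a change of -0.69. ITGA11 was low throughout, at 55.0, 71.1 and 63.6 against 11.2, 10.3 and 5.60. No library of one group reached the other for these chains, as for 98.5% of all genes.

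Of the laminin-binding chains, ITGA3 and ITGA7 were higher and ITGA6 was lower, beside 47.6% and 52.2% of all genes. ITGA3, the most abundant alpha chain per kb, measured 37768, 41676 and 36392 in sh-Control and 53810, 52562 and 58463 in sh-METTL3 cells, a rise of 0.51 (SE 0.0801, adjusted p = 0.000225, limma). ITGA7 measured 6508, 7088 and 6336 against 10960, 10441 and 9847, a rise of 0.65. ITGA6, the partner of ITGB4, measured 2889, 2956 and 2989 against 2187, 2075 and 2262, a change of -0.44 (SE 0.0527, adjusted p = 3.78e-05, limma). ITGA6 and ITGB4 thus moved in opposite directions.

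ITGAV, which pairs with ITGB5 and ITGB8, measured 16659, 16637 and 18909 in sh-Control and 20846, 23732 and 17663 in sh-METTL3 cells. One sh-METTL3 library lay within the sh-Control range. The rise of 0.25 (SE 0.102, adjusted p = 0.036, limma) was 0.14 without sh-METTL3 replicate 2 and no longer passed (adjusted p = 0.168, limma). The test was missed in 6 of 16 alternatives, among them those without sh-Control replicate 1 (0.22), sh-Control replicate 2 (0.21) and sh-METTL3 replicate 1 (0.24). The largest values were 0.38 with edgeR's RLE factors (adjusted p = 0.00432, edgeR quasi-likelihood test) and 0.36 without sh-METTL3 replicate 3 (adjusted p = 0.00127, limma). The 3 leukocyte chains were near the floor in sh-METTL3 cells. ITGAM measured 82.2, 96.1 and 76.6 against 14.9, 9.02 and 5.60. ITGAX had 95 reads in all sh-Control libraries and 2 in all sh-METTL3 libraries, a depth-adjusted ratio of 38.7 (95% exact interval 10.4 to 324, counting error only), and ITGAL had 32 and 1, a ratio of 26.1 (4.36 to 1062). CD14, 1 of 7 leukocyte markers and the only one listed, moved the same way, from 24.7 to 25.9 in sh-Control to 0 to 2.80 in sh-METTL3 libraries, and its part in these values was not tested.

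**Figure D2:**
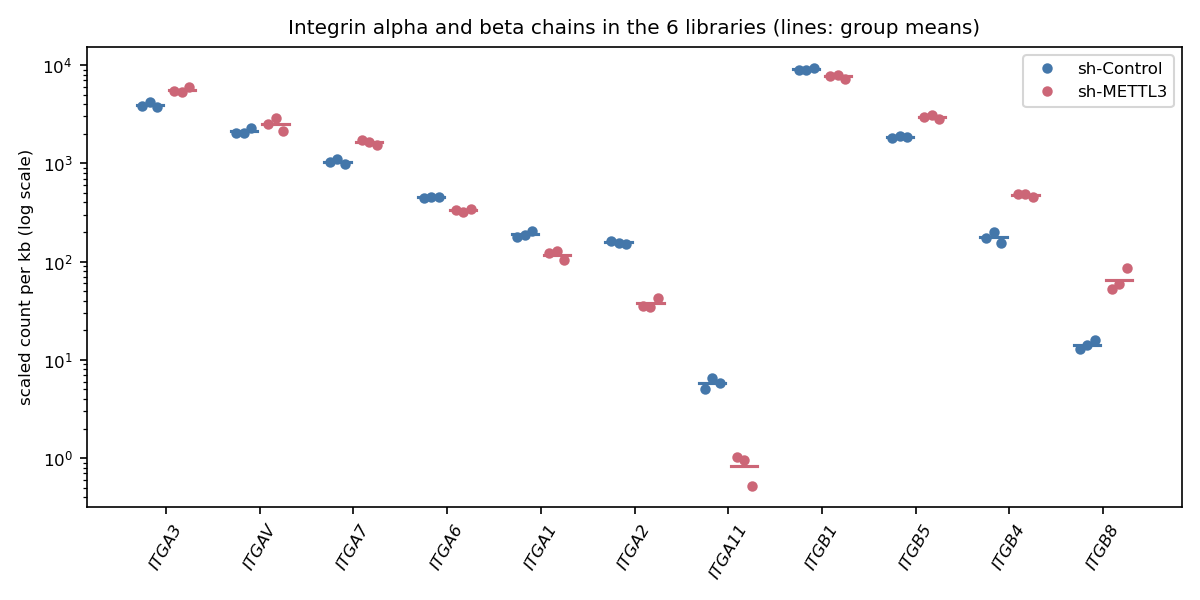
Scaled count per kb of exon (log scale) for the integrin alpha chains other than the leukocyte chains, then the beta chains, in each of the 6 libraries, with lines for group means. ITGB4 and ITGB8 in sh-METTL3 cells lie above all sh-Control libraries, ITGA2 and ITGA11 lie below them, and ITGAV overlaps.

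Of the proteins that bind the tail of ITGB1, ITGB1BP1, an inhibitor of integrin activation, rose by 0.41 (SE 0.0685, adjusted p = 0.000316, limma). Of its exon length, 33.1% overlaps ASAP2 on the opposite strand, and the strand setting of the counting was not given, so reads of the 2 genes may be mixed. ITGB1BP2, a muscle protein, was at 13.5 to 24.3 in sh-Control and 3.87 to 7.84 in sh-METTL3 libraries.

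Among adaptors that link integrins to actin, 18 of 30 were in the table, with 7 higher, 11 lower and a median of -0.28, beside 47.6% higher, 52.2% lower and a median of -0.21 over all genes. FLNA, the actin crosslinker filamin A, went from 98222 ± 4018 to 153179 ± 7315 (SD, n = 3), and ACTN4, an alpha-actinin, rose by 0.59. FERMT2, the integrin activator kindlin-2, changed by -0.74, SRC, a tyrosine kinase, by -0.74 and CSRP1, an actin-associated LIM protein, by -1.57. Of 14 other matrix receptors 10 were listed, with 6 higher and 3 lower, beside the same 47.6% and 52.2%, and LRP1 short of the test at 0.16 (adjusted p = 0.0886, limma). SDC1, a heparan sulfate proteoglycan, rose by 1.03 and CD151, a tetraspanin partner of laminin-binding integrins, by 0.84, while SDC3 changed by -1.10.

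Of the 8 laminin chains 6 rose and 2 fell, in a table where 47.6% of genes rose. LAMB2 measured 12780, 13943 and 13272 in sh-Control and 25208, 25433 and 22896 in sh-METTL3 cells, a rise of 0.88 (SE 0.0645, adjusted p = 1.46e-06, limma). LAMA4 measured 6682, 7637 and 8465 against 12846, 13754 and 12585, a rise of 0.79. LAMA5, the chain of the mature epithelial basement membrane, measured 2907, 2996 and 2555 against 4652, 4526 and 4145, a rise of 0.66. LAMA3, the alpha chain of the hemidesmosome-linked laminin, measured 317, 367 and 408 against 860, 894 and 679, a rise of 1.15. The sh-METTL3 libraries were above all sh-Control libraries for each of these, in a table where 98.5% of genes did not overlap.

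LAMB3, the beta chain that joins LAMA3, rose by only 0.20 (SE 0.0652, adjusted p = 0.0116, limma). It missed the test narrowly without sh-Control replicate 3 (0.14, adjusted p = 0.0501, limma). With edgeR's RLE factors it was 0.32 (adjusted p = 0.000708, edgeR quasi-likelihood test). LAMB4 was close to the floor, with means of 3.97 and 16.5. LAMB1 measured 12305, 12470 and 12360 in sh-Control and 9213, 9291 and 9114 in sh-METTL3 cells, a change of -0.43 (SE 0.0481, adjusted p = 2.45e-05, limma). LAMA2, a chain of muscle and mesenchymal basement membrane, measured 148, 157 and 136 against 31.7, 23.2 and 21.3. Per kb, LAMB2 was 1.23, 1.33 and 1.27 times LAMB1 in the sh-Control libraries and 3.24, 3.25 and 2.98 times in the sh-METTL3 libraries. The summed laminin level per kb was 4689 ± 146 and 6584 ± 292 (SD, n = 3), a difference of 40.4% over the 8 listed chains only.

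The 2 nidogens, which link laminin to the collagen network, were lower, as were 52.2% of all genes. NID1 measured 3890, 4507 and 4145 in sh-Control and 1557, 1456 and 1171 in sh-METTL3 cells, a change of -1.59 (SE 0.0992, adjusted p = 5.00e-07, limma). NID2 measured 1768, 1729 and 1648 against 1146, 1068 and 1134, a change of -0.62, and 30% of its exon length overlaps RTRAF on the opposite strand. The ratio of NID1 to LAMB2 per kb was 0.367 ± 0.0111 in sh-Control and 0.0664 ± 0.00624 in sh-METTL3 cells (SD, n = 3).

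**Figure D3:**
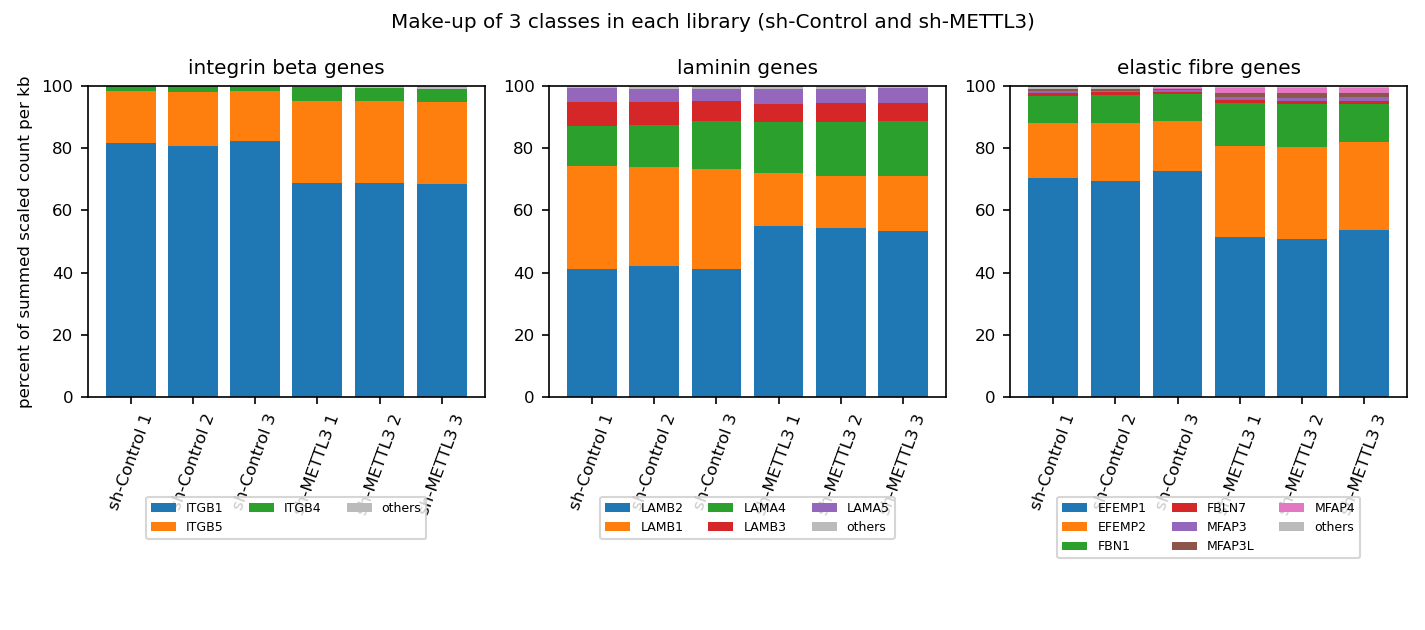
Share of each gene in the summed scaled count per kb of its class, in percent, for integrin beta chains, laminin chains and elastic fibre genes in each of the 6 libraries, with genes that stayed under 1% pooled as others. ITGB1 falls from 81.5% to 68.7%, LAMB2 rises from 41.4% to 54.2% and EFEMP1 falls from 70.9% to 52.1% between the group means.

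Of the 11 elastic fibre genes 8 were lower, in a table where 52.2% of genes were, and their summed level per kb fell from 11140 ± 772 to 5454 ± 158 (SD, n = 3), a difference of -51.0%. Most of that drop was EFEMP1: without it, a sum added after the data were seen, the level was 3231 ± 171 and 2614 ± 156, a difference of -19.1%. EFEMP1, the fibulin-3 gene and the most abundant of them, measured 28981, 30742 and 34279 in sh-Control and 11101, 11338 and 11314 in sh-METTL3 cells, a change of -1.47 (SE 0.0691, adjusted p = 8.55e-08, limma). FBLN1, another fibulin, measured 480, 522 and 487 against 124, 138 and 116. FBN1, the main microfibril protein, measured 14719, 16030 and 16453 against 12029, 12553 and 10576, a change of -0.43. No libraries overlapped between the groups for these genes, as for 98.5% of all genes.

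ELN, elastin itself, had 240 reads in all sh-Control libraries and 2 in all sh-METTL3 libraries, a depth-adjusted ratio of 97.8 (95% exact interval 26.8 to 812, counting error only). EMILIN2, an elastin-associated glycoprotein, measured 87.0, 84.6 and 70.1 against 10.3, 9.02 and 7.84. EFEMP2, fibulin-4, needed for elastic fibre assembly, changed by -0.29, and by -0.16 with edgeR's RLE factors (adjusted p = 0.0371, edgeR quasi-likelihood test). The 3 genes that rose were MFAP3L, from 470 ± 21.9 to 713 ± 89.6 (SD, n = 3), and the microfibril-associated MFAP4 and MFAP5 at low levels. MFAP3L was placed in this class by its symbol. MFAP4 measured 15.95, 26.9 and 21.5 against 187, 182 and 205, and MFAP5 measured 2.39, 2.88 and 2.80 against 56.9, 63.1 and 31.4. The per kb ratio of EFEMP1 to EFEMP2 was 4.12 ± 0.373 in sh-Control and 1.80 ± 0.101 in sh-METTL3 cells (SD, n = 3).

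Of the latent TGF-β binding protein family 2 listed genes fell and 1 rose, beside 52.2% and 47.6% of the table. LTBP2, a microfibril-associated member that is known not to bind latent TGF-β itself, measured 22253, 24412 and 24412 in sh-Control and 14495, 15360 and 15904 in sh-METTL3 cells, a change of -0.63 (SE 0.0643, adjusted p = 1.22e-05, limma). LTBP4 changed by -0.44. LTBP3, which holds inactive TGF-β in the matrix, measured 19599, 21001 and 19981 against 24435, 26234 and 23522, a rise of 0.29 (SE 0.0643, adjusted p = 0.0017, limma). In a list of YAP, TEAD and TGF-β signalling genes, 15 of 22 were in the table, with 3 higher and 12 lower and a median of -0.49, beside 47.6%, 52.2% and -0.21 over all genes. TGFB2, a TGF-β ligand, changed by -0.64, TGFBR2, its receptor, by -1.07 and TEAD2, a YAP partner, by -1.28, while AMOTL2 rose by 0.50. The other TEAD genes were divided: TEAD3 changed by -0.78 and TEAD4 by -0.88, and TEAD1, at a mean of 7384 in sh-Control, rose by 0.15.

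Of the 9 matricellular genes, which encode secreted regulators of adhesion, 6 were lower, in a table where 52.2% of genes were. TGFBI, an RGD protein that accumulates in corneal dystrophies, measured 93211, 101072 and 104463 in sh-Control and 196604, 204720 and 197923 in sh-METTL3 cells, a rise of 1.01 (SE 0.0975, adjusted p = 8.90e-06, limma). THBS1, thrombospondin-1, an activator of latent TGF-β, measured 68347, 77023 and 84773 against 41102, 46992 and 36854, a change of -0.88 (SE 0.11, adjusted p = 4.72e-05, limma), in a stretch of the chromosome where 97.5% of neighbouring listed genes were lower. SPARC, a collagen-binding glycoprotein, measured 42580, 45495 and 46332 against 28431, 29022 and 25323, a change of -0.70, and 7.89% of its exon length overlaps an antisense gene. CYR61, a CCN protein and a common YAP target, measured 47753, 54117 and 52795 against 43862, 45276 and 35501, a change of -0.32 (SE 0.101, adjusted p = 0.0112, limma) that was -0.21 without sh-METTL3 replicate 3. With edgeR's RLE factors CYR61 was at -0.19 and no longer passed (adjusted p = 0.0706, edgeR quasi-likelihood test). TNC, tenascin-C, measured 345, 359 and 318 against 15.9, 14.2 and 31.4, a change of -4.08. THBS4, another thrombospondin, measured 54.2, 49.96 and 51.4 against 144, 182 and 113, and was 2.82-fold higher. The class sum per kb was 51859 ± 3260 and 53124 ± 3394 (SD, n = 3), so its level stayed within the spread while TGFBI went from 24.6% to 48.2% of it.

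Of 5 adhesive glycoproteins 4 were higher and 1 lower, beside 47.6% and 52.2% of all genes. The lower gene was FN1, fibronectin. It measured 168348, 181935 and 193714 in sh-Control and 119416, 130368 and 79685 in sh-METTL3 cells, a change of -0.75 (SE 0.17, adjusted p = 0.00193, limma) that ranged from -0.89 to -0.54 over the alternatives. All sh-METTL3 libraries were below all sh-Control libraries, with replicate 3 the lowest, in a table where 98.5% of genes did not overlap. Per kb, TGFBI was 1.23, 1.23 and 1.20 times FN1 in the sh-Control libraries and 3.65, 3.48 and 5.51 times in the sh-METTL3 libraries. MATN2 and ECM1 rose by 0.65 and 0.70. MATN3, a cartilage matrilin, measured 77.4, 65.3 and 71.0 against 197, 245 and 293. VTN, vitronectin, a ligand of ITGAV with ITGB5, measured 37.5, 44.2 and 53.3 against 114, 97.9 and 48.1, so the groups overlapped. Its rise of 0.85 (adjusted p = 0.0196, limma) missed the test in 5 of 16 alternatives, among them those without sh-Control replicate 1 (0.73), sh-Control replicate 2 (0.85), sh-METTL3 replicate 1 (0.61) and sh-METTL3 replicate 2 (0.72). Of its exon length, 13.6% overlaps another gene on the same strand.

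**Figure D4:**
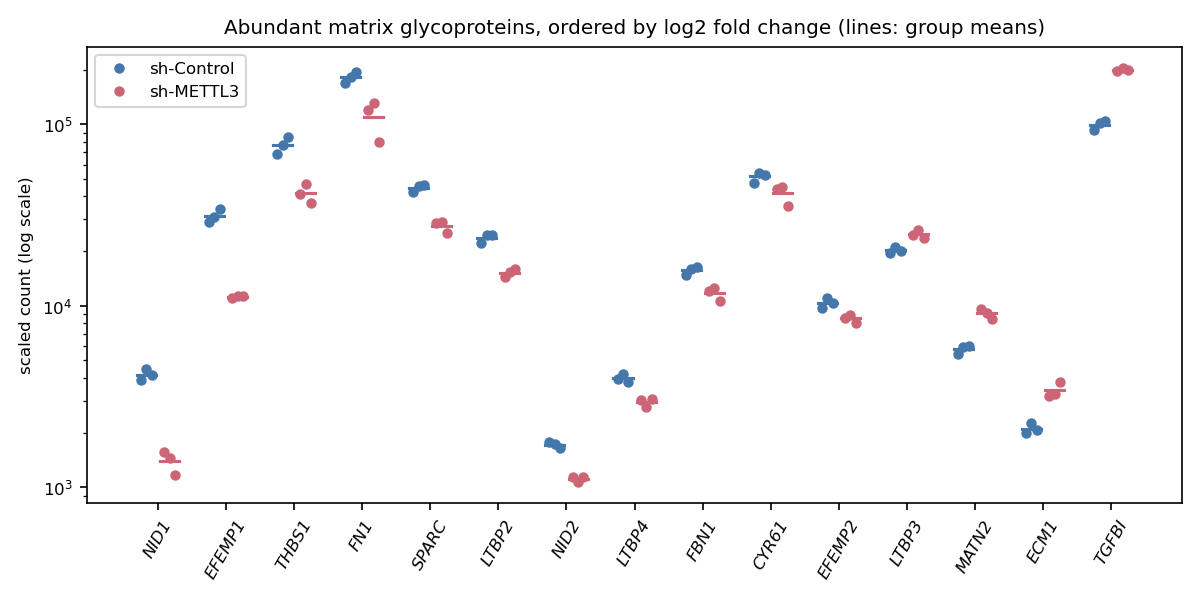
Scaled counts (log scale) of matrix glycoproteins with a group mean of at least 1000 in each of the 6 libraries, ordered by log2 fold change, with lines for group means. NID1 and EFEMP1 lie farthest below the sh-Control libraries and TGFBI lies at 2.01 times the sh-Control mean.

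Promoters of 42 of the 54 matrix genes were matched in RefSeq (GRCh38.p14, 250 bases before to 50 after the start). The letters GGAATG, the core recognised by TEAD factors, were searched on both strands. They were present in 8 of 24 promoters of genes that were lower (33.3%), in 2 of 18 of genes that were higher (11.1%) and in 14.1% of 27305 promoters. TGANTCA, the AP-1 letters, was present in 1 of 24 lower, 2 of 18 higher and 7.76% of all promoters, and CAGGTG, an E-box, in 2 of 24, 6 of 18 and 20.6%. In the EMILIN2 promoter the GGAATG and TGANTCA matches overlap. With so few promoters these shares are descriptions, and a match does not show binding. The stretches of 3 lower genes that are abundant in these cells are printed with the motif in capitals, which reads CATTCC where it lies on the opposite strand.
THBS1 (chr15:39581008-39581063, plus strand): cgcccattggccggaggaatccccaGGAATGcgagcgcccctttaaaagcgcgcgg
SPARC (chr5:151686902-151686957, minus strand): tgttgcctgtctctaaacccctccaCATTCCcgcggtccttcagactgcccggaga
FBN1 (chr15:48644998-48645053, minus strand): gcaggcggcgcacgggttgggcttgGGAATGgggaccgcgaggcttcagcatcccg

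GGACT, one form of the m6A motif, occurred at a median of 1.21 per kb in the longest transcripts of the 54 matrix genes and 0.946 per kb over the coding genes of the table. The median was 1.12 per kb in the matrix genes that were higher (quartiles 0.809 and 1.69) and 1.26 per kb in those that were lower (0.834 and 1.56). These ranges overlap almost fully. Over the coding genes of the table the order was reversed, with 0.998 per kb in higher and 0.913 per kb in lower genes. Methylation was not measured in these libraries.

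For each matrix gene up to 20 listed genes on either side along the chromosome were also examined. EMILIN2 had only 27 such neighbours in all and ITGB1BP1 33, and each other matrix gene had 40. More than 80% of these neighbours were lower in sh-METTL3 cells for 3 genes: THBS1 (97.5%), LTBP3 (95%) and EFEMP2 (87.5%). The median log2 fold change of the neighbours was -0.997 for THBS1 (itself -0.88), -0.64 for EFEMP2 (itself -0.29) and -0.66 for LTBP3 (itself 0.29). Just under that limit, FBN1 (-0.43) had 77.5% lower neighbours with a median of -0.60. The part of such a stretch in the values of THBS1, EFEMP2 and FBN1 was not tested.

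**Figure D5:**
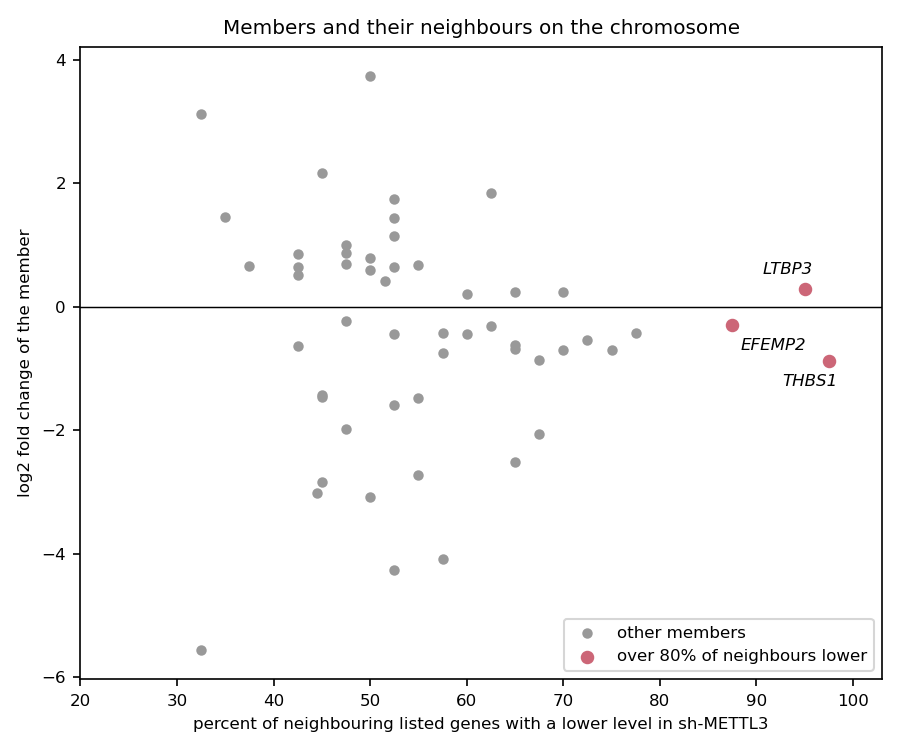
Log2 fold change of each matrix gene against the percent of its neighbouring listed genes (up to 20 on either side) with a lower level in sh-METTL3 cells. THBS1, EFEMP2 and LTBP3 lie beyond 80%, LTBP3 alone of these above 0.

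Of the 14 genes that share only a prefix with the matrix families, 5 were higher and 9 lower, in a table where 47.6% were higher and 52.2% lower. Their median was -0.32, values ran from -1.18 (CCNDBP1) to 0.71, and the median size of the change was 0.59, beside 0.62 over the table.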

How the data were processed

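RNA from 6 ARPE-19 libraries (Trizol, Illumina TruSeq) was sequenced by the authors. The submitters' processing notes name hg38 and HISAT2 2.0.5, and the study's methods name Cufflinks with RefSeq transcripts, whereas the table holds scaled whole reads on GENCODE gene models. The program behind those reads and its strand setting are not given in the sources used here. The authors deposited 1 table of 7758 genes with a normalised signal per library (gene counts divided by a size factor), and its columns of log2 fold changes, p-values and adjusted p-values hold their own comparison and were not used as results. No listed gene had a deposited adjusted p-value above 0.05. All values were whole multiples of 1 read (100% within 0.02), so counts were recovered from the deposited signal for edgeR 4.0.16 and DESeq2 1.42.0. Start, end and exon length of all 7758 genes matched GENCODE 29, which replaced 13 altered symbols.

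Differences were tested on log2(signal + 1) in R 4.3.3 by limma 3.58.1, whose prior variance followed the mean level, with Benjamini-Hochberg adjustment over 7758 genes and a threshold of 0.05. It was tested on simulated data. Named genes were, per role, up to 3 with the largest change among called genes without overlap and with a mean of at least 100 in the higher group, plus a fixed set and the chains of known pairs; others were named after their values were seen. The members and lists were chosen with earlier results of these data known. Levels were compared between genes only per kb of exon. Intervals cover counting error only.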

Additional observations from a re-analysis of the deposited data

How the results depend on the processing

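Over 16 alternatives (test, scaling, pseudocount, low-value filter, intensity trend, number of tests assumed, replicate block and each library left out), no matrix gene changed sign where it was tested. Outside the low-value filter 52 to 54 of the 54 passed, beside 7039 to 7758 of all 7758 genes. At an adjusted p of 0.01, 20 matrix genes were higher and 29 lower, a threshold not counted over all genes. Leaving out single libraries gave 22 to 24 matrix genes higher and 30 lower, beside 3609 to 3668 and 3960 to 4036 of all genes. The low-value filter (a mean of at least 50) left 10 matrix genes untested, and all 44 remaining passed, beside 6521 of 6532 genes. The median of the 44 was -0.02 in place of -0.37 (all genes -0.25 in place of -0.21). METTL3 fell by 0.17 with edgeR's RLE factors and no longer passed (adjusted p = 0.0881, edgeR quasi-likelihood test). RLE shifted the median of all genes by 0.12, and ITGB1 (-0.11) and CYR61 (-0.19) also lost their calls there. Beside those and ITGAV, VTN and LAMB3, no matrix gene lost its call at 0.05. A pair of sums was also taken without 1 gene, chosen after the data were seen: the mesenchymal sum without VIM turned from a rise to a difference of -45.3%, and the elastic fibre sum without EFEMP1 was -19.1% in place of -51.0%. A pseudocount of 10 moved ELN to -2.89, ITGAX to -1.81, ITGAL to -0.86, ITGB1BP2 to -0.80, MFAP5 to 2.21 and LAMB4 to 0.92. With the replicate block 54 matrix genes passed, 24 higher and 30 lower, beside 7750 of 7758 genes, and METTL3 stayed at -0.30. Libraries sharing a number did not deviate together (correlations 0.004, 0.019 and -0.015), so they share only a number. The deposited table limits all counts, since genes that had not passed the authors' test were not analysed here.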
